A study of Mus musculus with 12 samples.

Results

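The mitochondrial fatty acid oxidation and TCA cycle genes are 38 named mouse genes for the steps that turn a fatty acid into carbon dioxide and reduced electron carriers. They were taken as a fixed list of symbols, not by their values, and all 38 were found among the 38924 genes counted in the files. The study sorted cells from C57BL/6 mice that carried ROSAmTmG, a membrane reporter that switches from tdTomato to GFP after Cre recombination, together with either Myf5-Cre or Ucp1-iCre. Myf5-Cre is active in precursors of skeletal muscle and of many brown adipocytes, and Ucp1-iCre in cells with an active Ucp1 gene, so GFP also marks descendants that no longer use the driver gene. Each driver gave 3 groups of 2 libraries, 12 in all: GFP+ and GFP- mammary myoepithelial cells (Lin-, CD24+, CD29hi) of lactation day 10, and GFP+ brown adipocytes of virgin females 8 weeks old. Tissue, reproductive state and sort differ together between mammary and brown groups and cannot be told apart. Nothing in the labels says whether libraries came from separate mice, so each p reflects how far these libraries vary, which may be technical.

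Fatty acids are activated to acyl-CoA, carried into mitochondria through carnitine, and shortened in a spiral of dehydrogenation, hydration, another dehydrogenation and thiolysis. Electrons from the first step leave through the electron transfer flavoprotein, and the acetyl-CoA released is burned in the TCA cycle. Brown adipocytes, which burn fat to make heat, are known for dense mitochondria and high levels of these enzymes, while myoepithelial cells contract to eject milk.

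Levels are CPM (each gene's count relative to the library total, on a common scale), scaled by TMM factors, from library totals of 11027738 to 32956480 counts. A gene was called when the adjusted p of edgeR's quasi-likelihood test was under 0.05 over the 16953 genes tested, and 37 of the 38 members passed the filter on low counts (Cpt1b did not, and Acaa1b passed only through the brown adipocytes). The sorted cells were checked against marker lists. The summed CPM of 10 brown adipocyte markers other than Fabp4 was 3311 to 28460 in the 4 brown libraries and 132 to 606 in the 8 mammary libraries. Fabp4 itself was high in both, at 7757 to 15560 CPM in brown and 2168 to 14610 CPM in mammary libraries. With it the 11 markers summed to 17980 to 37360 in brown and 2300 to 15210 in mammary libraries. The 10 myoepithelial and basal markers summed to 25.2 to 200.3 in brown libraries, with Krt5, Krt14 and Krt17 at 0 there, and to 1554 to 18670 in mammary libraries. Ucp1, the uncoupling protein that defines brown fat, was at 0 in all 4 GFP+ mammary libraries. The mammary libraries also held 8 luminal and milk markers at a sum of 11130 to 84310. Endothelial markers summed to 482 to 4690 CPM in mammary and 9.03 to 1657 in brown libraries, and immune markers to 409 to 1662 and 4.15 to 137. Pericyte markers summed to 372.5 to 2682 in mammary and 7.20 to 536 in brown libraries, and fibroblast markers to 190.5 to 17740 and 36.7 to 85.5. Their part in the mammary levels was not tested. The 7 skeletal muscle markers summed to 0 to 66.1 in mammary and 81.0 to 341 in brown libraries. Of the brown sums, Mb held 143.9 and 325.4 CPM in the Myf5-Cre and 19.1 and 66.2 CPM in the Ucp1-iCre libraries. Both Ucp1-iCre GFP+ myoepithelial libraries stood apart, with 10909 and 10560 genes detected against 13761 to 19794 in the other mammary libraries, and a replicate correlation of 0.682 across genes against 0.832 to 0.982 in the other groups.

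Nearly the whole module was lower in unlabelled (GFP-) myoepithelial cells than in brown adipocytes of both drivers. Of 37 members tested, 32 fell and 0 rose, with 25.9% of all genes tested called in either direction and 11.7% called lower. Acaa1b passed the filter only through the brown adipocytes. It is in this count, and in those of GFP+ myoepithelial against brown cells below, as a description only. The median log2 fold change of the members was -3.53, against 0.355 over all genes. In 31 members the 4 unlabelled libraries all lay below the 4 brown libraries, a pattern seen in 18% of all genes. Summed over the 38 members, the 8 mammary libraries held 2197 to 3586 CPM. The Myf5-Cre brown adipocytes held 61760 and 67520 CPM and the Ucp1-iCre brown adipocytes 10450 and 29790 CPM, so that the module was above every mammary library in each of the 4. In bulk RNA, fewer cells of a type and less RNA per cell cannot be told apart. Between the tissues, genes of the mitochondrial chromosome moved the same way, at 12.6% to 36.0% of the counts in brown and 0.648% to 2.45% in mammary libraries. Among the brown libraries they did not, as the 36.0% belongs to the library with the lowest module sum. Their part in the result was not tested. Without both Ucp1-iCre brown libraries, a comparison added after seeing the data, 33 members were called, all lower. In that fit 3541 of all genes were called, 1700 of them lower.

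**Figure D1:**
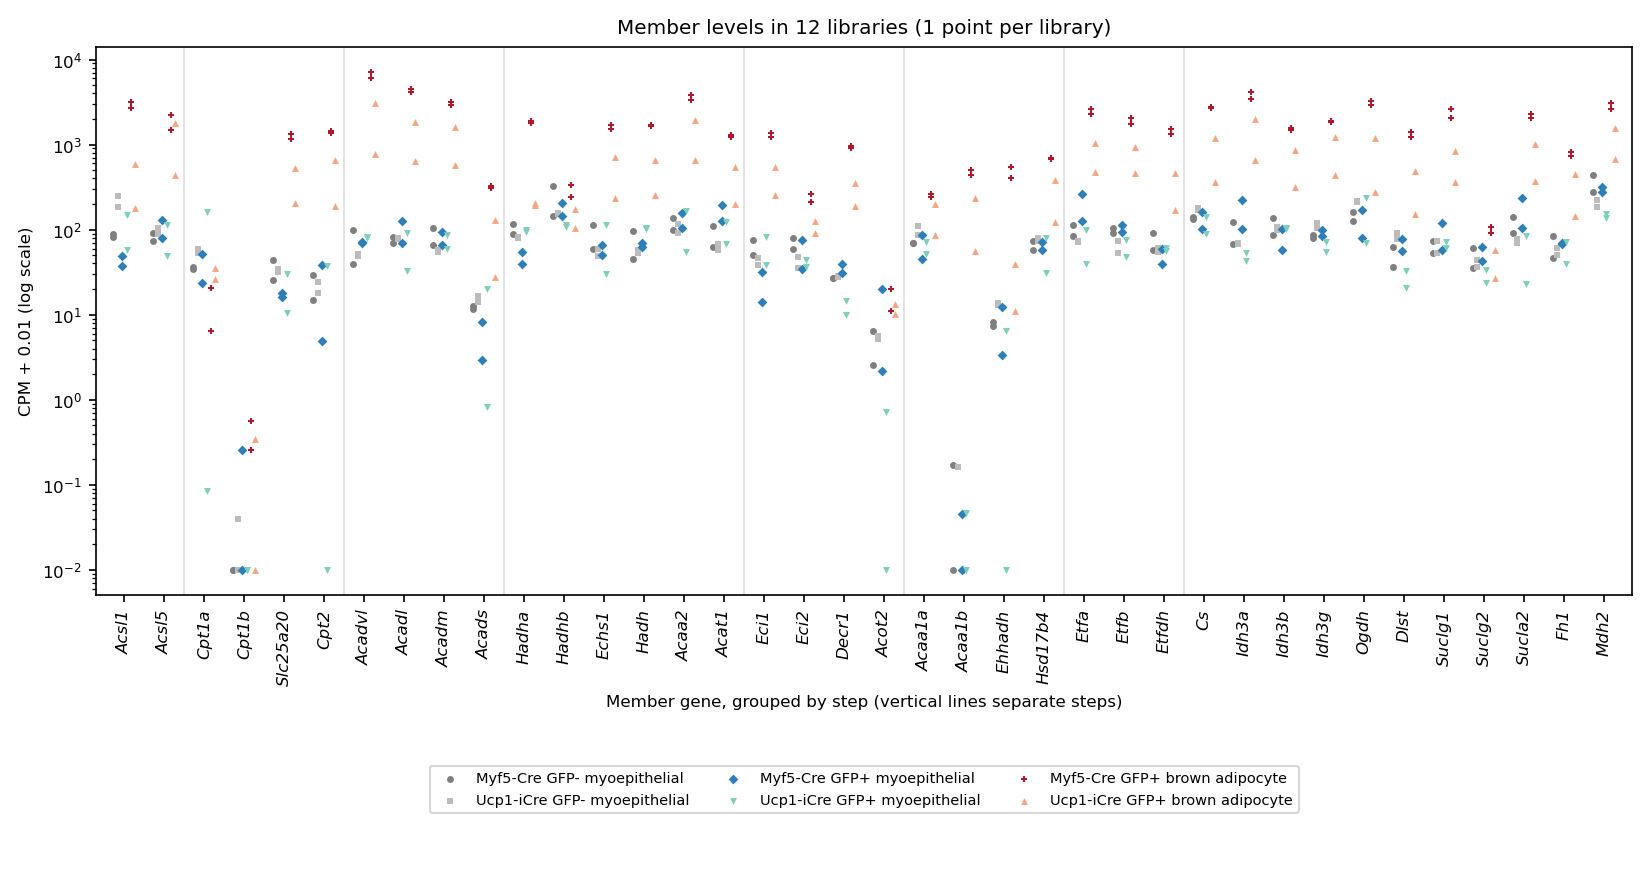
CPM of each of the 38 members (plus 0.01, log scale) in each of the 12 libraries, grouped by step; each point is 1 library and colours mark the 6 groups. In most members the 4 brown adipocyte points lie above all 8 mammary points, while Suclg2, Acsl1, Cpt1a, Hadhb, Acaa1a and Ehhadh overlap between unlabelled cells and brown adipocytes.

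Activation was lower in unlabelled cells for both acyl-CoA synthetases. Acsl1 held 87.8 and 81.4 CPM in Myf5-Cre and 248 and 184 CPM in Ucp1-iCre unlabelled cells, against 3134 and 2710 in Myf5-Cre brown and 180.5 and 594 in Ucp1-iCre brown adipocytes. Its groups overlapped through the first Ucp1-iCre brown library. Acsl5 did not overlap, at 89.5 ± 13.1 CPM (SD, n = 4) in unlabelled cells and 1480 ± 757 (SD, n = 4) in brown adipocytes.

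The carnitine shuttle split at its entry. Cpt1a, the outer membrane carnitine palmitoyltransferase that sets the rate of entry, was the only member whose log2 fold change was positive, at 1.13 (SE 1.25, edgeR adjusted p = 0.562). It held 34.4, 36.4, 59.6 and 52.5 CPM in the unlabelled libraries, against 6.47 and 20.5 in Myf5-Cre and 35.1 and 26.0 in Ucp1-iCre brown adipocytes. The groups overlapped through the lowest unlabelled library, which lay just under the first Ucp1-iCre brown library, and a fit on the compared groups alone called it higher, with an edgeR adjusted p of 0.0406. Cpt1b, the muscle-type isozyme, held at most 0.550 CPM in any library, and its transcript shares 93.7% of its 31-base sequences with the read-through gene Gm44502, so no level is read for it. Further in, Slc25a20, the carnitine-acylcarnitine exchanger, fell 19.7-fold (log2 -4.30, SE 0.47, edgeR adjusted p = 0.000512). Cpt2, which returns the acyl group to CoA inside, held 14.7 to 28.9 CPM in unlabelled libraries and 191 to 1458 in brown libraries. Its log2 fold change was -5.18 (SE 1.49), with an edgeR adjusted p of 0.0318 that rose to between 0.0593 and 0.142 when any 1 of the 8 libraries was left out.

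All 4 acyl-CoA dehydrogenases, which take the first pair of electrons at successive chain lengths, fell. Acadvl, for very long chains, held 97.8, 39.7, 49.5 and 51.4 CPM in the unlabelled libraries, against 6114 and 7150 in Myf5-Cre and 776 and 3077 in Ucp1-iCre brown adipocytes. No library of either kind came near the other, and the fold was 60.7 (log2 -5.92, SE 0.55, edgeR adjusted p = 0.000252). The Acadvl transcript shares 32.7% of its sequence with Dvl2 on the opposite strand. Dvl2 itself was counted at 446 to 3924 CPM in brown and 2.13 to 30.5 CPM in mammary libraries, the strand setting of the counting is not given in the sources used here, and reads of these overlapping genes may have been split between them. Acadl, for long chains, fell 30.0-fold, from 2775 ± 1829 CPM in brown (SD, n = 4) to 77.4 ± 5.18 in unlabelled cells (SD, n = 4). Acadm, for medium chains, fell 26.4-fold, and 12.7% of its transcript is shared with other loci. Acads, for short chains, fell 11.5-fold, to 13.7 ± 2.16 CPM (SD, n = 4).

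Hydration to thiolysis fell in 5 of 6 members, and the exception was a subunit of an enzyme complex. The trifunctional protein joins Hadha, which hydrates and dehydrogenates long chains, with Hadhb, which cleaves them. Hadha held 117, 89.2, 80.6 and 82.2 CPM in the unlabelled libraries, 1788 and 1904 in Myf5-Cre brown and 195 and 205 in Ucp1-iCre brown adipocytes, and fell 6.62-fold (log2 -2.73, SE 0.26, edgeR adjusted p = 0.000258). Hadhb held 329.5, 145, 153 and 158 CPM in the unlabelled libraries, 333 and 241 in Myf5-Cre brown and 105 and 173 in Ucp1-iCre brown adipocytes. Its groups overlapped, with a log2 fold change of -0.06 (SE 0.33, edgeR adjusted p = 0.937). The genes stand head to head on chromosome 5 of mm10, Hadha at 30118304 to 30155162 on the minus strand and Hadhb at 30155248 to 30184593 on the plus strand. The whole of the interval between their outermost annotated starts is shown because both genes are read away from it, with capitals marking the letters GGGCGG, found 2 times (RefSeq, GRCm38.p6, chr5:30155163-30155247, plus strand).
Hadha-Hadhb interval: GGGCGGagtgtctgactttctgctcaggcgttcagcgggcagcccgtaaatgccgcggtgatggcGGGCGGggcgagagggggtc
The Hadhb transcript shares 65.6% of its 31-base sequences with other loci, 64.7% with Gm13910, which was counted at 3.78 to 15.6 CPM in brown and 0.176 to 2.09 CPM in mammary libraries. Hadha shares 1.13%. The part of shared sequence in the Hadhb level was not tested. The other members of the step followed Hadha: Acaa2, the thiolase of the spiral, fell 19.4-fold, Hadh 14.0-fold, Echs1 12.7-fold and Acat1, which acts on acetoacetyl-CoA, 9.28-fold.

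Auxiliary enzymes handle double bonds and release of the acyl group. Decr1, which reduces dienoyl-CoA from polyunsaturated chains, had the smallest adjusted p of the module (9.89e-05, edgeR), at 27.7 ± 0.815 CPM in unlabelled cells and 605 ± 389.5 in brown adipocytes (SD, n = 4 each). Eci1, an enoyl-CoA isomerase, fell 13.8-fold and its relative Eci2 2.98-fold, with 15.2% of the Eci2 transcript shared with other loci. Acot2, a thioesterase, held 2.55 to 6.35 CPM in unlabelled and 10.3 to 20.02 CPM in brown libraries. These did not overlap, but the test did not call it (log2 fold change -1.47), and 38.04% of its transcript is shared with other loci.

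The peroxisomal members gave the widest contrast within a gene pair. The Acaa1b values here and below are a description, because the gene passed the filter only through the brown adipocytes. Acaa1a and Acaa1b are neighbouring copies of the peroxisomal thiolase on chromosome 9. Acaa1b held 0 counts in the first Myf5-Cre unlabelled library and 0.162, 0.150 and 0.153 CPM in the other unlabelled libraries, against 436, 508, 55.3 and 235 CPM in the brown libraries. The pooled counts were 4 against 9110 for Myf5-Cre, a ratio of 5632 between brown and unlabelled cells (95% interval 2199 to 20670), and 10 against 3288 for Ucp1-iCre, a ratio of 1019 (95% interval 553.5 to 2127), where the intervals are exact and cover counting error only. Acaa1a held 84.3 ± 19.1 CPM in unlabelled cells and 197 ± 78.9 in brown adipocytes (SD, n = 4 each), fell 2.28-fold and overlapped. Each shares much of its transcript with the other, 46.0% of Acaa1a and 57.4% of Acaa1b with all other loci, so reads between the copies may have been lost or split. The 250 bases before a RefSeq start of each are shown because the copies differ so widely in level. For Acaa1a that start lies inside the gene as annotated in GENCODE, which begins at 119339676. Capitals mark CCAAT and GGGCGG on either strand (RefSeq, GRCm38.p6).
Acaa1a, chr9:119341044-119341293, plus strand: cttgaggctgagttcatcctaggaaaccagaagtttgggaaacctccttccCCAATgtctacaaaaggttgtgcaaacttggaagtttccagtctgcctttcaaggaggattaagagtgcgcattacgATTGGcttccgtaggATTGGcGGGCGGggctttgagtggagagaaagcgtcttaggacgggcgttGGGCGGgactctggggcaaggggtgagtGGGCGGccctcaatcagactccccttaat
Acaa1b, chr9:119157094-119157343, minus strand: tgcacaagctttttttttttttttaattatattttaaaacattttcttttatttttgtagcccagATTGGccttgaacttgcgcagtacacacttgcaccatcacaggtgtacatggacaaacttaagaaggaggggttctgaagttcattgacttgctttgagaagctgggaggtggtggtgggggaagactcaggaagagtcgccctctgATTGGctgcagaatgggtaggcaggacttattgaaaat
Acaa1a holds CCAAT 3 times and GGGCGG 3 times, and Acaa1b holds CCAAT 2 times and GGGCGG 0 times. Of the bifunctional enzymes, Hsd17b4 fell 5.87-fold. Ehhadh held 7.28 to 13.8 CPM in unlabelled libraries and 408, 538, 11.1 and 39.6 CPM in the brown libraries, overlapped through the first Ucp1-iCre brown library, and was not called (edgeR adjusted p = 0.0616).

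Electron transfer fell at each of its 3 genes, with Etfa 16.2-fold, Etfb 14.6-fold and Etfdh, which passes the electrons to ubiquinone, 10.2-fold lower. Of the Etfb transcript 68.0% is shared with other loci, and of the Etfa transcript 11.4%. In the TCA cycle 10 of 11 members fell. Cs, citrate synthase at the entry, held 142, 135, 171 and 182 CPM in the unlabelled libraries, 2678 and 2744 in Myf5-Cre brown and 359 and 1205 in Ucp1-iCre brown adipocytes, and fell 9.31-fold (log2 -3.22, SE 0.42, edgeR adjusted p = 0.00104). The catalytic subunit gene of NAD isocitrate dehydrogenase, Idh3a, fell 27.9-fold, while its partners Idh3b and Idh3g fell 8.85-fold and 12.9-fold. Of the succinyl-CoA ligase genes, Suclg1, the shared alpha subunit, fell 18.7-fold and Sucla2, the ADP-forming beta subunit, 13.3-fold. The GDP-forming beta subunit gene Suclg2 overlapped between the tissues at 35.6 to 60.5 CPM in unlabelled and 27.2 to 106 CPM in brown libraries, with a log2 fold change of -0.56 (SE 0.38, edgeR adjusted p = 0.315), and 28.1% of its transcript is shared with other loci. Ogdh, Dlst, Fh1 and Mdh2 fell 6.64-fold to 10.1-fold.

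Where a member's sequence is its own, the result was the same in direction except for Cpt1a. Of 20 members with under 5% of transcript sequence shared and no exon of a gene on the opposite strand, 18 fell. Of all genes, 11.7% were called lower. Cpt1a, with a positive log2 fold change, and Ehhadh, with a negative one, were not called.

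The division of the module among its steps also differed between the tissues, and does not depend on how libraries are scaled. Acyl-CoA dehydrogenases took 6.88% to 9.59% of the members' summed CPM in the 8 mammary libraries and 19.4% to 22.4% in the 4 brown libraries. Hydration to thiolysis took 17.9% to 25.2% in mammary and 14.2% to 16.4% in brown, and the peroxisomal members 3.92% to 6.90% in mammary and 2.62% to 2.92% in brown. These 3 shares did not overlap between the tissues, but 2 of them rest on genes that share sequence with other loci. Without Hadhb, hydration to thiolysis took 13.0% to 20.9% in mammary and 13.7% to 15.9% in brown, and without Acaa1a the peroxisomal members took 1.77% to 3.30% and 1.81% to 2.57%, both overlapping. Without Acadvl, the acyl-CoA dehydrogenases took 5.22% to 6.76% in mammary and 12.9% to 13.5% in brown. The TCA cycle overlapped, at 32.9% to 46.2% in mammary and 34.8% to 36.6% in brown. These brown ranges take in the Ucp1-iCre libraries, whose summed level was below that of Myf5-Cre. Per kilobase of transcript, the order of the genes changed. In brown adipocytes Acadvl stood first at 1974 CPM per kb, followed by Acaa2 (1609), Acadl (1448) and Etfb (1447). In unlabelled cells Mdh2 stood first at 192 CPM per kb, followed by Hadhb (95.9) and Etfb (90.5), and Acadvl stood at rank 22 with 27.5. Across the 37 genes the 2 orders had a Spearman rho of 0.636, a description over genes that share libraries.

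**Figure D2:**
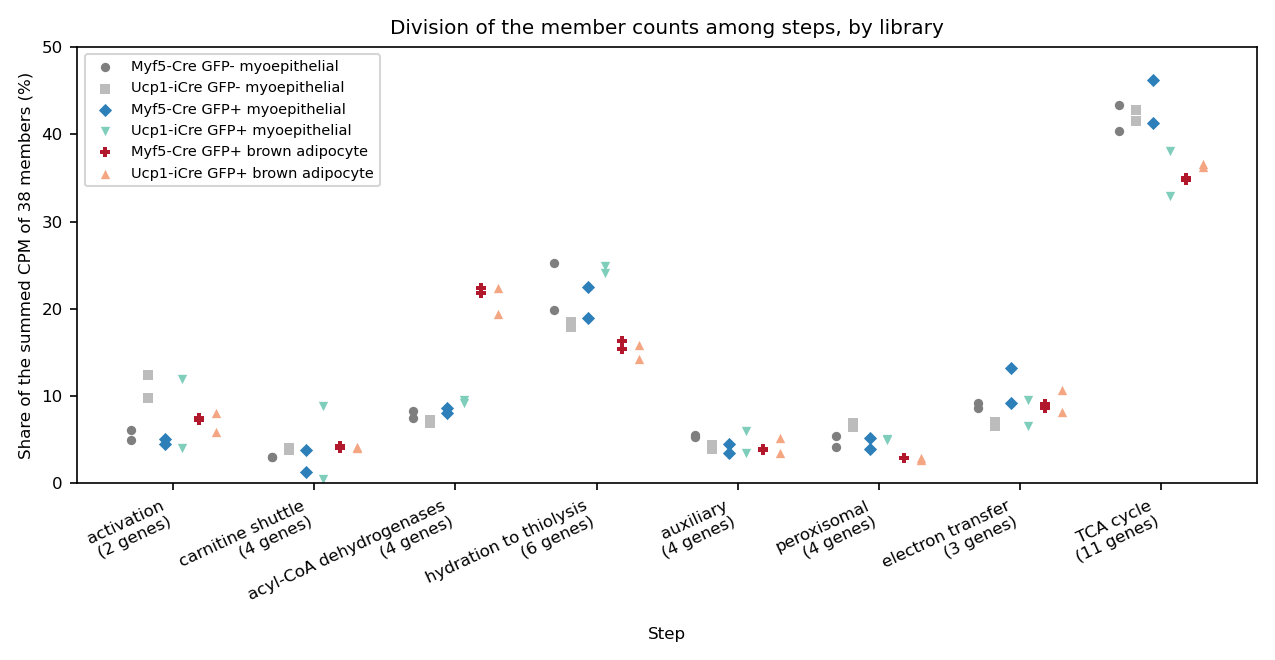
Share of the members' summed CPM (percent, vertical axis) taken by each of 8 steps in each library; points are libraries and colours the 6 groups. The acyl-CoA dehydrogenases of the 4 brown libraries sit between 19.4% and 22.4%, above the 6.88% to 9.59% of the 8 mammary libraries.

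GFP+ myoepithelial cells of each driver were next set against GFP+ brown adipocytes of the same driver, the comparison that asks how a labelled mammary cell differs from the brown adipocyte that carries the same label. For Myf5-Cre, 31 of 37 members fell and 0 rose, with 19% of all genes called and 8.43% called lower, and the median log2 fold change was -4.56 against 0.137 over all genes. In 35 members the groups did not overlap in this direction, against 33.8% of all genes. For Ucp1-iCre, 27 of 37 fell and 0 rose, with 26.9% of all genes called, 21.8% lower and 5.12% higher, and a median of -2.95 against -0.687. Without overlap, 34 members were lower, against 41.1% of all genes, and 0 higher, against 16.6%. With the 4 compared Ucp1-iCre libraries alone, 0 members and 0 of all genes were called at a median of -2.97, and leaving out the second brown library left 16 called.

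Among the Myf5-Cre cells, Acadvl held 71.5 and 70.5 CPM in GFP+ myoepithelial libraries, and its log2 fold change against brown adipocytes was -6.55 (SE 0.79, edgeR adjusted p = 0.00134). On the log2 scale the changes were -6.19 for Slc25a20, -6.08 for Acsl1, -5.82 for Acads, -5.798 for Eci1, -5.45 for Acadl and -5.29 for Hadha, with edgeR adjusted p values of 0.000622 to 0.0221. The Acads call was lost when any of the 4 libraries was left out. Cs fell by 4.37 (SE 0.62, edgeR adjusted p = 0.00253). Acaa1b held 1 count over both GFP+ myoepithelial libraries and 9110 in brown adipocytes, a ratio of 21200 (95% interval 3805 to 837600, counting error only). Cpt1a again had a positive value, 1.48 (SE 1.79, edgeR adjusted p = 0.604).

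Among the Ucp1-iCre cells, Acadvl held 82.8 and 78.7 CPM in GFP+ myoepithelial libraries, with a log2 fold change of -4.58 (SE 0.72, edgeR adjusted p = 0.00274). On the log2 scale the changes were -4.81 for Idh3a, -4.48 for Decr1, -4.35 for Acadl, -4.19 for Slc25a20, -3.92 for Acadm and -3.79 for Acsl5, with edgeR adjusted p values of 0.000735 to 0.00672. Cs changed by -2.79 (SE 0.58, edgeR adjusted p = 0.00925). Hadha fell by 1.06 (SE 0.35, edgeR adjusted p = 0.0487), a call lost with RLE factors (0.0563), with no filter (0.0760) and when any of the 4 libraries was left out (0.0906 to 0.139). Cpt1a was at 0.0735 CPM in the first GFP+ library and 162 CPM in the second, against 35.1 and 26.0 in brown adipocytes. Its value of 1.41 (SE 1.78, edgeR adjusted p = 0.609) therefore turns on 1 library, and without the second it was -8.59. Acaa1b held 1 count over both GFP+ libraries against 3288 in brown adipocytes, a ratio of 10570 (95% interval 1895 to 417500, counting error only).

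**Figure D3:**
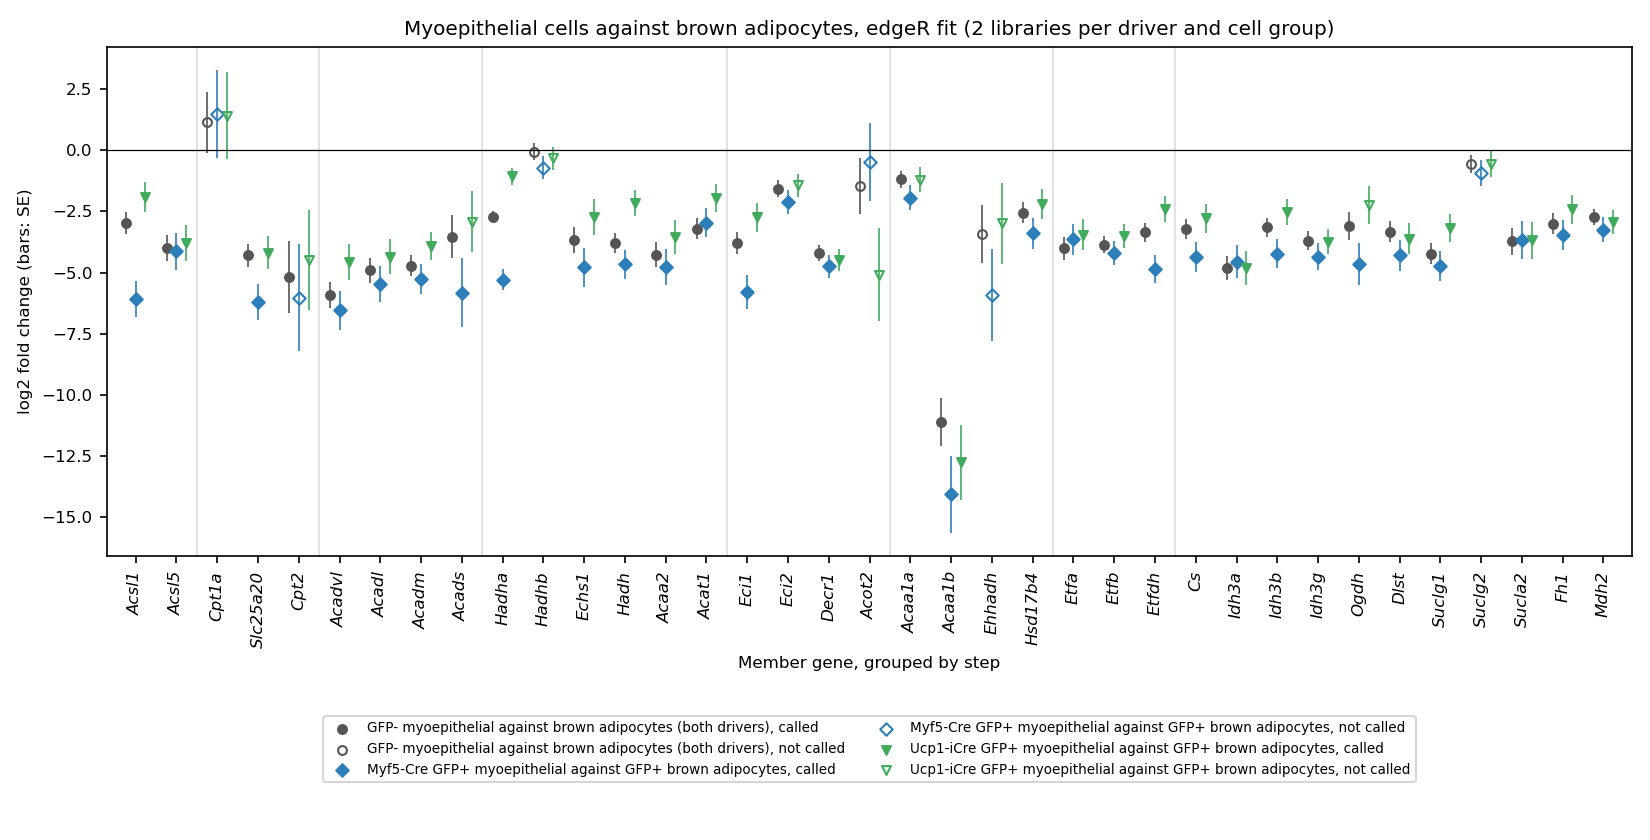
log2 fold change with its standard error (vertical axis) of the 37 tested members in 3 comparisons of myoepithelial cells with brown adipocytes; filled symbols are called at an adjusted p under 0.05 and open symbols are not. Every member except Cpt1a lies below 0 in all 3 comparisons, Acaa1b lowest, and Hadhb and Suclg2 are open symbols in each.

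Within the mammary gland, the next comparison asked whether a GFP+ myoepithelial cell differs in this module from its GFP- neighbour. With Myf5-Cre, 0 of 37 members were called by edgeR (2 at an unadjusted p under 0.05, smallest adjusted p 0.364), and 0% of all genes. The other tools run, DESeq2 and limma-voom, also called 0 members. The median log2 difference was -0.01, against -0.06 over all genes. In 5 members the GFP+ libraries lay below both GFP- libraries, against 20.2% of all genes, and in 3 above, against 14.5%. Hadha held 54.9 and 39.7 CPM in GFP+ and 117 and 89.2 in GFP- cells (log2 -1.13, SE 0.35, edgeR adjusted p = 0.364). Eci1 held 14.2 and 32.0 CPM against 76.0 and 51.0 (log2 -1.46, SE 0.57, edgeR adjusted p = 0.477). Acads held 2.93 and 8.27 CPM against 11.5 and 12.8 (log2 -1.11, SE 1.16, edgeR adjusted p of 1). In these 3 genes both GFP+ libraries lay below both GFP- libraries. Cs differed by -0.08 (SE 0.54) and Cpt1a by 0.09 (SE 1.75), each with an edgeR adjusted p of 1, and both signs turn under other settings. The 6 fibroblast markers summed to 17740 and 9550 CPM in these GFP+ libraries against 822 and 478 in the GFP- libraries, and the basal list to 3352 and 5060 against 9725 and 18670, with 9 of 10 genes lower without overlap. All 4 pericyte genes were higher and all 4 endothelial genes lower without overlap, and the milk and luminal list summed to 26460 and 11130 against 77630 and 39390. Their part in the values was not tested.

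With Ucp1-iCre, 0 of 37 members were called by edgeR (smallest adjusted p 0.0791), against 13.5% of all genes, nearly all of them lower in GFP+ cells (13.2%). The median was -0.35 for the members and -0.69 over all genes. The GFP+ libraries lay below both GFP- libraries in 14 members, against 48.1% of all genes, and above both in 4, against 11.8%. Decr1 held 14.5 and 9.88 CPM in GFP+ and 27.8 and 28.8 in GFP- cells (log2 -1.22, SE 0.41, edgeR adjusted p = 0.0791). Dlst, the E2 subunit of oxoglutarate dehydrogenase, held 20.6 and 32.2 CPM against 77.5 and 91.5 (log2 -1.68, SE 0.58, edgeR adjusted p = 0.0863). Ehhadh held 6.43 and 0 CPM against 13.8 and 12.9 (log2 -2.06, SE 1.59, edgeR adjusted p = 0.446). Neither Hadha (log2 0.24, SE 0.34, edgeR adjusted p = 0.727) nor Cs (-0.64, SE 0.55, edgeR adjusted p = 0.499) was called, nor Cpt1a (0.53, SE 1.75, edgeR adjusted p = 0.91). DESeq2 and limma-voom each called 1 member, Acot2, for which the count over all genes is not given here. The GFP+ libraries disagreed with each other where a member was at or near 0 in 1 of them: Cpt2 held 0 and 37.8 CPM, Cpt1a 0.0735 and 162, Acads 0.809 and 19.8. Leaving out the first GFP+ library led to calls for Ehhadh and Acot2, and leaving out the second to calls for Cpt1a, Cpt2 and Acads. Markers also differed. The basal list summed to 1554 and 3386 CPM in GFP+ against 11220 and 12940 in GFP- libraries, with 10 of 10 genes lower without overlap. The luminal and milk list summed to 14060 and 16360 against 75160 and 84310 (8 of 8 lower). The fibroblast list summed to 677 and 190 against 2915 and 2326 (5 of 6 lower), and all 4 immune and all 4 pericyte genes were lower. The 4 endothelial genes summed to 3014 and 4690 against 3178 and 2863, with 1 higher and 0 lower without overlap. In both GFP+ libraries the endothelial sum was above the basal sum. Their part in the values was not tested.

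Whether the GFP effect differed between drivers was tested as an interaction. It was called for 0 of 37 members, against 10.6% of all genes, 10.4% lower and 0.271% higher (smallest adjusted p 0.122, for Hadha), and DESeq2 called 1, Hadha. The values were 1.36 (SE 0.49) for Hadha, -0.56 (SE 0.77, edgeR adjusted p = 0.818) for Cs and 0.44 (SE 2.47, edgeR adjusted p of 1) for Cpt1a. Unlabelled cells of the 2 drivers were also compared, as a check of the lines. Of 37 members 0 were called and of all genes 0% (edgeR, smallest member adjusted p of 1, and 0 by DESeq2 and limma-voom). Without overlap, 10 members were higher in Ucp1-iCre cells, against 30.4% of all genes, and 8 lower, against 17.8%. Among members without overlap, Acsl1 differed by 1.35 (SE 0.61), Mdh2 by -0.82 (SE 0.46) and Ehhadh by 0.78 (SE 1.54) on the log2 scale. The values were 0.66 (SE 1.76) for Cpt1a, 0.35 (SE 0.54) for Cs and -0.34 (SE 0.34) for Hadha.

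Brown adipocytes of the 2 drivers did not carry the module at the same level. In 34 of 37 members both Ucp1-iCre libraries lay below both Myf5-Cre libraries, against 28.3% of all genes, and the median log2 difference was -1.69 against 0.00283 over all genes. edgeR called 1 member lower, with 1.23% of all genes called, 0.0295% lower and 1.2% higher. It was Hadha, at 195 and 205 CPM in Ucp1-iCre and 1788 and 1904 in Myf5-Cre brown adipocytes (log2 -3.21, SE 0.37, edgeR adjusted p = 0.0159). The call was lost without the first Myf5-Cre library (adjusted p 0.1005) or the first Ucp1-iCre library (0.113). DESeq2 called 15 members, all lower, among 1486 of all genes, of which 312 were lower. Acsl1 differed by -2.92 (SE 0.65, edgeR adjusted p = 0.0704), Ehhadh by -4.22 (SE 1.74, edgeR adjusted p = 0.345) and Cs by -1.79 (SE 0.56, edgeR adjusted p = 0.183). Cpt1a was above both Myf5-Cre libraries, at 1.18 (SE 1.78, edgeR adjusted p = 0.921).

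The Ucp1-iCre libraries also differed from each other. Genes of the mitochondrial chromosome held 36.0% of the counts in the first and 12.6% in the second, against 23.9% and 21.4% in the Myf5-Cre libraries. What this share means for the module level was not tested. Relative to the mean of the Myf5-Cre libraries, the median member stood at 17.5% in the first Ucp1-iCre library and at 46.4% in the second, and 36 of 37 members were under the Myf5-Cre mean in both. Hadha did not follow this step and held nearly the same level in the 2 libraries, whereas Acadvl held 776 and 3077 CPM and Acsl5 438 and 1809 CPM. Of 11 brown adipocyte markers 10 were likewise below the Myf5-Cre libraries without overlap, and the medians of the list were 20.4% and 47.0% of the Myf5-Cre mean, while Fabp4 was at 154% in the first library. Markers of 4 other cell types were higher. In the Ucp1-iCre libraries against the Myf5-Cre libraries the sums were 1657 and 869.5 against 9.03 and 263 CPM for 4 endothelial genes, 536 and 307 against 7.20 and 44.9 for 4 pericyte genes, 137 and 37.2 against 4.15 and 8.16 for 4 immune genes, and 1148 and 385 against 34.4 and 116 for 3 erythroid genes. All members of these 4 lists lay above the Myf5-Cre libraries without overlap, and none of them was at 0 in both libraries of a brown group. Fibroblast markers summed to 47.2 and 36.7 against 85.5 and 47.7 CPM, and skeletal muscle markers to 209 and 81.0 against 215 and 341. Mb alone held 19.1 and 66.2 against 143.9 and 325.4 CPM of the muscle sums. Among the brown libraries, every muscle gene but Mb was highest in the first Ucp1-iCre library, with Ckm at 55.45 and 1.87 against 12.7 and 0. The median log2 difference of the 7 muscle genes was 2.18, with 1 higher and 1 lower without overlap. Their part in the lower module level was not tested.

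**Figure D4:**
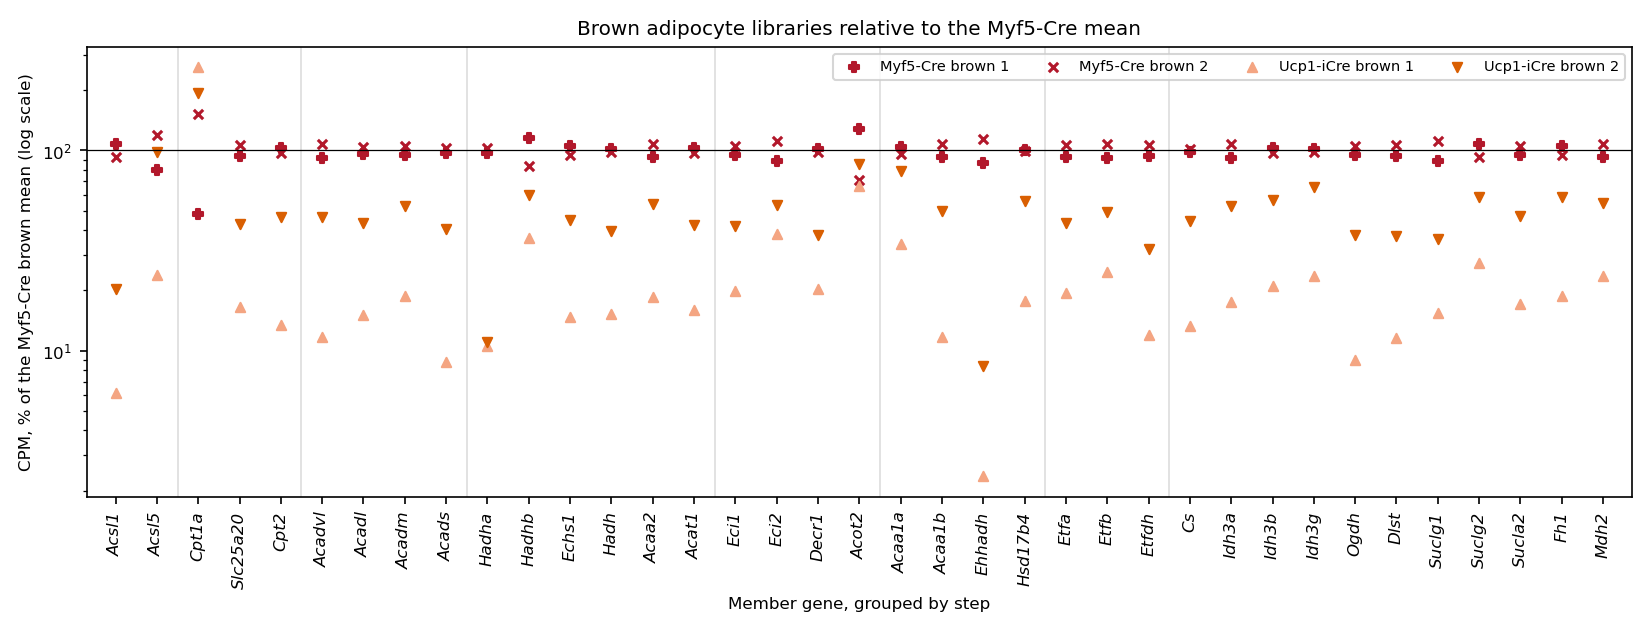
CPM of the 37 tested members in the 4 brown adipocyte libraries as a percent of the Myf5-Cre mean (log scale). The Ucp1-iCre points have medians of 17.5% and 46.4%, Hadha is near the same low level in both, Ehhadh is lowest and Cpt1a is above 100%.

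Ratios between paired isozymes or subunits within a library, per kilobase of the principal transcript, leave out the scaling of the library. They were compared between 4 unlabelled and 4 brown libraries with a two-sided exact permutation test, for which 0.0286 is the smallest p, adjusted over 5 ratios. Log2 Hadhb over Hadha was 2.46, 1.67, 1.90 and 1.91 in the unlabelled libraries, -1.45 and -2.01 in Myf5-Cre and 0.08 and 0.73 in Ucp1-iCre brown adipocytes, a mean difference of 2.65 (exact permutation p = 0.0286, adjusted p = 0.0357). The unlabelled libraries all lay above the brown ones, and the Ucp1-iCre brown libraries lay between. Log2 Suclg2 over Sucla2 was -1.68 ± 0.26 in unlabelled cells and -4.80 ± 0.36 in brown adipocytes (SD, n = 4 each), a difference of 3.12 with the same exact permutation p and adjusted p. Log2 Acaa1b over Acaa1a was lower in unlabelled cells by a mean of 10.0 on this scale. This is given as a description, because it rests on 14 counts of Acaa1b in the unlabelled libraries and the gene passed the filter only through the brown ones. Acsl5 over Acsl1 differed by -0.97 and overlapped (exact permutation p = 0.257, adjusted p = 0.257). Cpt1b over Cpt1a differed by -4.63, a value set by 1 count of Cpt1b in the unlabelled libraries and 12 in the brown ones, and is not read further. This ratio and Acaa1b over Acaa1a also stood at the smallest p, which lowers the adjusted p over the 5 ratios. The adjusted p of Hadhb over Hadha and Suclg2 over Sucla2 thus leans on ratios that are not read, and is not taken as a call. For Hadhb over Hadha the Myf5-Cre GFP+ myoepithelial libraries, at 2.89 and 2.82, lay above the unlabelled ones. The Ucp1-iCre GFP+ myoepithelial libraries, at 1.16 and 1.17, lay between the unlabelled and the brown libraries.

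**Figure D5:**
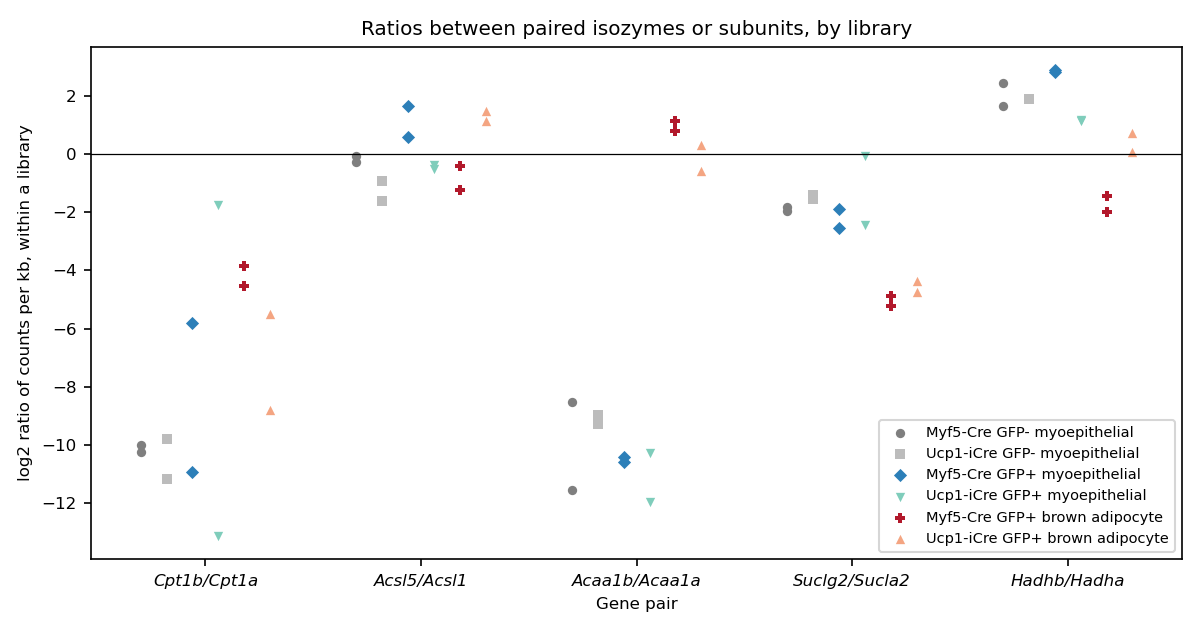
log2 ratio of counts per kilobase within a library (0.5 added to each count, vertical axis) for 5 gene pairs; each point is a library and colours mark the 6 groups. For Hadhb over Hadha and Suclg2 over Sucla2 the 8 mammary points lie above the 4 brown points, and for Acaa1b over Acaa1a below them.

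Other genes of the pathway, from lists that do not hold the members, were counted in the contrast between unlabelled cells and brown adipocytes. Of all genes, 11.7% were called lower and 14.2% higher there. All 9 further genes listed beside the TCA cycle fell, of which Idh1 and Mdh1 encode cytosolic enzymes, among them the succinate dehydrogenase gene Sdhb, from 1541 ± 860 to 121 ± 30.4 CPM (SD, n = 4 each, log2 -3.52, SE 0.36, edgeR adjusted p = 0.000336). Of 13 genes for pyruvate entry 10 fell, among them the pyruvate carrier Mpc2 (log2 -4.58, SE 0.33, edgeR adjusted p = 8.34e-05). Uptake, activation and malonyl-CoA control was mixed, with 6 of 13 lower and 2 higher. The 2 that rose bind or take up fatty acids: Fabp3 held 606 ± 134 CPM in unlabelled cells and 139 ± 128 in brown adipocytes (SD, n = 4 each, log2 2.87, SE 0.29, edgeR adjusted p = 0.0003), and Cd36 6116 ± 2704 and 2394 ± 1367 (SD, n = 4 each, log2 1.49, SE 0.29, edgeR adjusted p = 0.00629). Cd36 is named because the count is small, a choice made after its values were seen. The carboxylases Acacb and Acaca, which make the malonyl-CoA that inhibits carnitine palmitoyltransferase 1, fell by 3.13 and 4.13 on the log2 scale. Of 9 peroxisomal genes 6 fell, among them Ech1 by 2.62 on the log2 scale. Of 10 propionyl-CoA and branched chain genes 7 fell, and of 4 ketone body genes 1 fell. The ketone body count and the 2 of 13 uptake genes that rose are not read as results about their lists. Of 11 regulators 4 fell: the coactivators Ppargc1a (0.682 ± 0.26 CPM in unlabelled, 57.7 ± 42.6 in brown, SD, n = 4 each, edgeR adjusted p = 0.031) and Ppargc1b, and the receptors Ppara and Esrrg. Between Myf5-Cre GFP+ and GFP- myoepithelial cells, none of these 7 lists had a called gene by edgeR. It called 0% of all genes there, so this is not a result about the lists. Between Ucp1-iCre GFP+ and GFP- cells, edgeR called lower 1 of 13 pyruvate entry and 3 of 13 uptake genes. There it also called lower 1 of 9 peroxisomal genes, 2 of 4 ketone body genes and 1 of 11 regulators. In that comparison 13.2% of all genes were called lower, and the other lists had 0 calls.

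Promoters of 32 members were matched in RefSeq (GRCm38.p6), and 6 short elements were searched in the 250 bases before each start, on both strands. The letters of the estrogen-related receptor element, TCAAGGTCA, were in 0 of the 38 promoters of these genes and in 0.387% of all 32851 promoters, and their core AAGGTCA was in 1, of Acadm (2.63%), and in 4.08% of all promoters. The nuclear receptor direct repeat with 1 base between its repeats (DR1) was in 0 of the 38 and 0.0335% of all promoters. GGGCGG was in 22 of the 38 promoters of these genes (57.9%) and 32.7% of all promoters, and CCAAT in 20 of the 38 (52.6%) and 33.9%. The cyclic AMP element TGACGTCA was in 4 of the 38 (10.5%), all of Mdh2 or Ogdh, and in 1.55% of all promoters. The first element contains its core, and a match describes letters only.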

How the data were processed

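Bulk RNA of sorted cells was amplified with the SMART-Seq v4 kit and sequenced on an Illumina HiSeq, per the labels' protocols. The deposited files hold raw read counts per Ensembl gene for each library. TopHat, HTSeq and DESeq2 with build mm10 are named, with no versions or strand setting, in the submitters' processing notes. Counts were fitted with edgeR 4.0.16 (R 4.3.3, limma 3.58.1), all 12 libraries in 1 model, with TMM factors, filterByExpr at a minimum count of 10, robust quasi-likelihood tests and Benjamini-Hochberg adjustment over 16953 genes. SE is the absolute log2 fold change over the square root of F. Alternatives used DESeq2 1.42.0, limma-voom, other scaling, filters and left-out libraries. The procedure was tested on simulated data with a smaller spread between libraries than the common coefficient of variation of 0.847 fitted here. That test therefore does not show how the procedure performs at the spread of these data. Shared sequence is the share of a transcript's 31-base words found in other genes of GENCODE M21.

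Statistics were given for called members, up to 8 of largest log2 change per direction. With fewer than 3 calls, the 3 largest without overlap and at 10 CPM or more were used, and Cpt1a, Cs and Hadha were given in each comparison. Up to 4 called genes of each neighbour list were eligible, and some of them are not reported here. Members and lists were chosen with earlier results of these data known.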

Additional observations from a re-analysis of the deposited data

Results flagged for a closer look

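Hadha and Decr1 moved opposite ways with GFP under the drivers, with no overlap between GFP+ and GFP- libraries in either. For Hadha the GFP+ minus GFP- log2 difference was -1.13 with Myf5-Cre and 0.24 with Ucp1-iCre, a difference between drivers of 1.365 (edgeR adjusted p = 0.122). For Decr1 the values were 0.37 and -1.22, a difference of -1.586 (edgeR adjusted p = 0.126). Neither difference passed the test. Without overlap, 20.2% of all genes were lower and 14.5% higher in GFP+ cells with Myf5-Cre. With Ucp1-iCre these shares were 48.1% and 11.8%. The share of all genes with opposite patterns was not counted, so the pair is not read as a result about the members.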

How the results depend on the processing

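Of 731 alternative values of single genes, 676 kept direction and side of the threshold, 31 lost the call, 11 gained it and 13 reversed, none of the reversals in a called gene. Leaving out 1 library gave 28 to 31 members called for unlabelled cells against brown adipocytes, 26 to 28 for Myf5-Cre GFP+ myoepithelial against brown cells, 16 to 27 for Ucp1-iCre, 0 to 0 for Myf5-Cre GFP+ against GFP- cells, 0 to 3 for Ucp1-iCre, 0 to 1 for brown adipocytes of the drivers, 0 to 2 for the interaction and 0 to 0 for unlabelled cells of the drivers. Each of these fits leaves 1 library in a group, so the counts are not read as a result about the members. With the compared groups alone, Ucp1-iCre GFP+ myoepithelial against brown cells gave 0 (smallest adjusted p 0.0686). For Ucp1-iCre GFP+ against GFP- cells, DESeq2 gave 1, limma-voom 1 and the replicate block 1 (Dlst). For brown adipocytes, DESeq2 gave 15, limma-voom 2, the compared groups alone 2 and a fit without the Ucp1-iCre GFP+ myoepithelial group 4. For the interaction, DESeq2 gave 1. The cause was not tested in these cases. Those without a count over all genes beside them are not read as a result about the members. Over all genes, Myf5-Cre GFP+ against GFP- cells gave 0 calls by edgeR, 724 by DESeq2, 567 by limma-voom and 211 without the Ucp1-iCre GFP+ group.

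Replicate numbers were not used as pairs in the main fit. Of 15 pairs of groups, 1 had a same-number correlation over 0.1 (range -0.0703 to 0.289). It was Myf5-Cre GFP+ and GFP- myoepithelial cells, at 0.289, so a pairing of these groups is not excluded, and their main comparison was unpaired. Pairing the libraries by driver and replicate number leaves the mean differences of the ratios unchanged by construction (Cpt1b/Cpt1a -4.63, Acaa1b/Acaa1a -10, Suclg2/Sucla2 3.12, Hadhb/Hadha 2.65). The exact sign permutation over so few pairs cannot give a p under 0.05. Its adjusted p of 0.156 for Suclg2/Sucla2 and Hadhb/Hadha therefore decides nothing. Leaving out 1 library gave -5.68 to -4.02 for Cpt1b/Cpt1a and -10.4 to -9.35 for Acaa1b/Acaa1a. It gave 2.98 to 3.27 for Suclg2/Sucla2, 2.20 to 3.11 for Hadhb/Hadha and -1.46 to -0.56 for Acsl5/Acsl1, with 0.0571 the smallest possible p. Over all 8 myoepithelial libraries Cpt1b/Cpt1a was -3.43 (adjusted p 0.167, exact permutation).

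Cpt1a reversed with limma-voom to -2.58 (Ucp1-iCre GFP+ against brown), -3.49 (GFP+ against GFP-) and -3.61 (interaction), and ranged from -8.59 to 2.41, -9.47 to 1.52 and -9.56 to 1.43 when 1 library was left out, the low end without the second Ucp1-iCre GFP+ library. With the replicate block it was -0.13 for Ucp1-iCre, -0.031 for the interaction and -0.10 for Myf5-Cre GFP+ against GFP-, which ran from -0.59 to 0.54 when 1 library was left out, lowest without the second GFP+ library. Cs in that comparison was 0.0351 with RLE factors and 0.0352 with DESeq2, and ran from -0.44 to 0.19 when 1 library was left out, highest without the first GFP+ library.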
